A study of Mus musculus with 14 samples.

Results

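The genes described here are 31 genes of glycolysis and of the response to low oxygen, measured in stromal cells of injured mouse muscle. They were chosen as a named set, matched by gene symbol, and all 31 were found under the same gene identifier in both deposited tables. One table lists 56953 genes and the other 14330. Fibro-adipogenic progenitors (FAPs) are the mesenchymal stromal cells of skeletal muscle, which multiply after injury and can turn into fat-storing or matrix-producing cells. They were isolated with magnetic beads (MACS) from the tibialis anterior (TA) muscle on day 3 after injury with barium chloride (BaCl2) or glycerol, and RNA was taken from the freshly isolated cells. After BaCl2 there were 3 libraries of the genotype SMA, taken to mean spinal muscular atrophy, and 3 from wild-type (WT) mice. After glycerol there were 4 of each genotype. The labels used here give no SMA allele, strain or age, no uninjured group, and do not say whether each library is a separate animal, so the p-values measure the spread between these libraries, which may be technical.

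Glycolysis splits glucose into pyruvate in the cytosol and yields ATP without oxygen, and lactate formed from pyruvate leaves the cell through monocarboxylate transporters. When oxygen is short, the prolyl hydroxylases encoded by Egln1 and Egln3 stop marking the transcription factor HIF-1alpha, encoded by Hif1a, for breakdown. HIF-1alpha then binds a short DNA core near its target genes, which include most glycolytic enzymes, the glucose transporter Slc2a1, the lactate exporter Slc16a3 and Egln3 itself. The factor is controlled mostly at the protein level, which these RNA data do not measure.

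The BaCl2 libraries hold 97.7 to 136 M counts each (M, mega), and their levels are given as CPM, counts per M after TMM scaling. The glycerol table holds values that its authors had already normalized, with sums of 71.4 to 76.6 M and an unknown depth, so its levels are given as normalized counts. Smn1, which encodes the protein lacking in spinal muscular atrophy, lay at 9.995 to 12.0 CPM in the SMA and 15.3 to 17.2 CPM in the WT libraries after BaCl2, and at 640 to 806 and 935 to 1209 normalized counts after glycerol. As the altered part of Smn1 is not given, these levels are a limited check of the labels. Markers of FAPs were abundant in every library, but markers of other cells were present and moved with genotype. The summed level of 15 monocyte and macrophage genes was 2083 to 3174 CPM in SMA against 1147 to 1602 CPM in WT libraries after BaCl2, and 121666 to 295265 against 106626 to 137671 normalized counts after glycerol. The summed level of 10 FAP genes was 40277 to 53254 CPM in SMA against 60241 to 66739 CPM in WT libraries after BaCl2. After glycerol these sums overlapped, at 3.29 to 4.15 M against 3.25 to 4.64 M normalized counts. By log2 fold change after BaCl2, 9 of the 10 genes were lower in SMA. In the edgeR test used below, 5 passed as lower, where 1.56% of all genes did. Pdgfra (log2 fold change -0.04), Cd34 (-0.07) and Pi16 (0.45) were among those that did not pass. The summed level of 6 Schwann cell genes was 26.9 to 32.6 CPM in SMA against 13.3 to 18.9 CPM in WT libraries after BaCl2. Of these 6 genes, 5 were higher in SMA and S100b was lower (log2 fold change -0.22). In bulk samples such as these, fewer cells of a type and less RNA per cell cannot be told apart.

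The promoter windows of the set show the DNA core that HIF binds. Of the 31 genes, 30 matched the RefSeq promoter table (GRCm38.p6), with 47 windows of 300 bases, from 250 bases before to 50 after a transcription start. The core was searched as ACGTG and GCGTG on both strands. ACGTG also lies within the E-box CACGTG, which other factors bind. At least 1 window of 27 of the 30 genes (90%) held either form, against 46.7% of 27025 genes in the table. ACGTG was held by 20 of 30 (66.7%), against 21.8%. Genes with more windows have more places for a match. By window, 35 of 47 (74.5%) held either form, against 43.8% of 32851 windows, and 51.1% held ACGTG, against 19.6%. The windows of the set were also richer in CpG, with a median of 21 CpG dinucleotides against 7 over all windows. A match describes the letters and shows no binding.

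The 5 windows printed here belong to genes whose levels are given by library below, and capitals mark the core on either strand. All 5 hold ACGTG, so they do not show the range within the set. Of other genes given by library, Hk2, Pgam1, Hif1a, Pfkfb3 and Gapdh hold ACGTG. Pfkl, Pfkfb4 and the first Kdm3a window hold only GCGTG. Gpi1 and the other Kdm3a windows hold neither. The first Mxi1 window, not printed, also holds neither. Slc2a1 lies at chr4:119108495-119108794 (plus strand), Pgk1 at chrX:106186850-106187149 (plus), Slc16a3 at chr11:120948817-120949116 (plus), Egln3 at chr12:54203825-54204124 (minus) and the Mxi1 window at chr19:53329163-53329462 (plus).
Slc2a1: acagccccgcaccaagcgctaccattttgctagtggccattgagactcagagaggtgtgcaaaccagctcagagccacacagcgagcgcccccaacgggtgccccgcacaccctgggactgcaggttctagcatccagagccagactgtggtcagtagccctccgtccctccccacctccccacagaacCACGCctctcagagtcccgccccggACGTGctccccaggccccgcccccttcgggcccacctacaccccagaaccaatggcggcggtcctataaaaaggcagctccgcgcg
Pgk1: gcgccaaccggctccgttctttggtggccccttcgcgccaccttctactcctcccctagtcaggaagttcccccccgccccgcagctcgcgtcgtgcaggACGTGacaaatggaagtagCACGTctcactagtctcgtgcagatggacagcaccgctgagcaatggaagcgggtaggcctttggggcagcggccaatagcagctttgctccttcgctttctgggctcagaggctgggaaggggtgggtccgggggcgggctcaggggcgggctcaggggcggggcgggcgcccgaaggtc
Slc16a3: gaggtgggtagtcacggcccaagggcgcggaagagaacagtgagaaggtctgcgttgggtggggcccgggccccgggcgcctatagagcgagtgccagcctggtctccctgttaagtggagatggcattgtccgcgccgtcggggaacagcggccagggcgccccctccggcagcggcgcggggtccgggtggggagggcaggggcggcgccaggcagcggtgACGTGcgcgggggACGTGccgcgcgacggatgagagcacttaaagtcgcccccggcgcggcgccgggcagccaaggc
Egln3: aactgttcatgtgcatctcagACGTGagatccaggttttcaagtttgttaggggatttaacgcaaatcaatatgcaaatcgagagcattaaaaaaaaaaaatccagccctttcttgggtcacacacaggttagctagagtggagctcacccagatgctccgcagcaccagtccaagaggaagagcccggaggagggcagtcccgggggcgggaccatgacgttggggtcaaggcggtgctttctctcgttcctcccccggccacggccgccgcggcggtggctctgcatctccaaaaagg
Mxi1, the middle of its 3 windows: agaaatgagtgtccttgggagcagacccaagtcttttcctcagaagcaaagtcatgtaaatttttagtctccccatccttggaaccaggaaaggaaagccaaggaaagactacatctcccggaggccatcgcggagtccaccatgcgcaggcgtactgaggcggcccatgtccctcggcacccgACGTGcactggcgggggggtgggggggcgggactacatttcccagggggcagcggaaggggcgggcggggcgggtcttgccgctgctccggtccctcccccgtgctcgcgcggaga

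Pgk1 and Slc16a3 each hold ACGTG at 2 places, in Slc16a3 within 27 bases before the start and in Pgk1 on opposite strands. Slc2a1 holds both forms. The windows of Egln3 and Mxi1 hold a single ACGTG, in Egln3 far upstream, 229 bases before the start.

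The first comparison asked how the SMA libraries differed from WT libraries after BaCl2. Most of the 31 genes lay slightly higher in the SMA libraries, and no single gene passed the test. In the quasi-likelihood test of edgeR, 0 of 31 genes passed at an adjusted p under 0.05, where 4.29% of the 20119 genes tested passed (2.73% higher and 1.56% lower in SMA). The log2 fold change, SMA against WT, was positive for 25 and negative for 6 of the 31, with a median of 0.14, against 49.4% positive and a median of -0.0028 over all genes. At an unadjusted p under 0.05 the SMA libraries were higher for 10 of the 31 and lower for 0, where 9.67% and 9.58% of all genes reached that level. In 7 of the 31 every SMA library lay above every WT library, and the reverse held for 0, against 12.2% and 13.1% of all genes. DESeq2 passed 5 of the 31 as higher, where it passed 11.3% of all genes in either direction (976 higher and 722 lower of 15063). Limma, added after the data were seen, passed 1 as higher, where it passed 4.39% of all genes (553 higher and 331 lower of 20119). The authors' deposited table passes 5 of the 28 that have an adjusted p there, namely Gpi1, Mxi1, Pfkl, Pgam1 and Slc2a1, all higher in SMA, and 13.8% of all genes with one (7.74% higher and 6.04% lower).

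**Figure D1:**
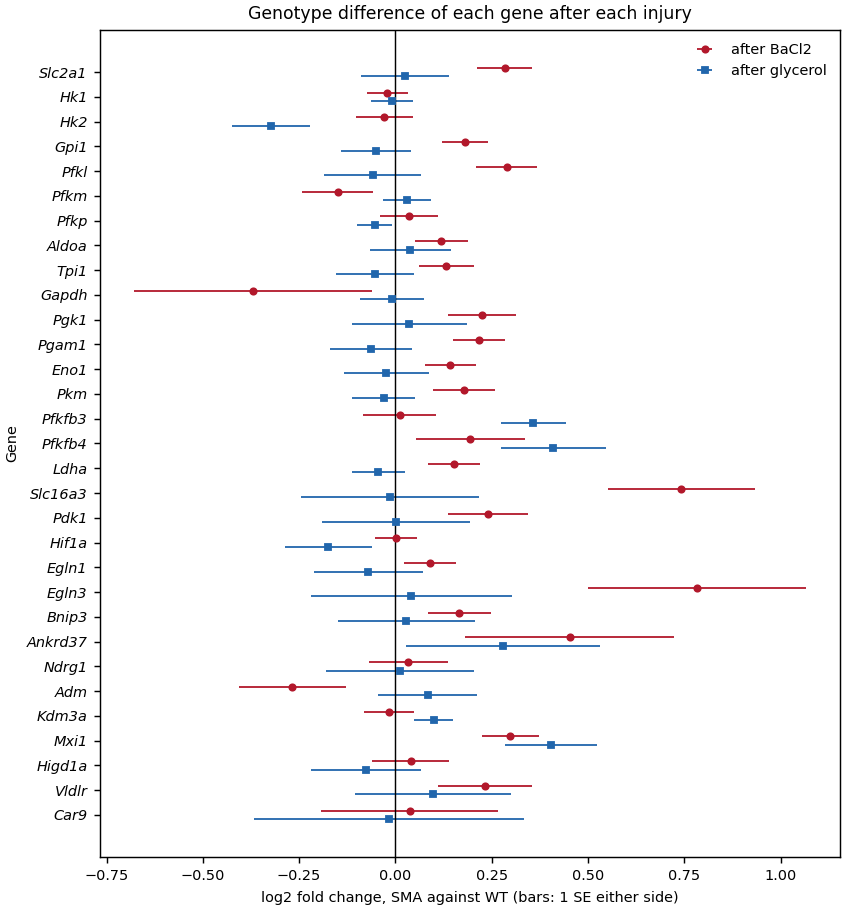
Log2 fold change of each of the 31 genes, SMA against WT, after BaCl2 (circles, 3 libraries a genotype) and after glycerol (squares, 4 a genotype), with bars of 1 SE either side. After BaCl2 25 of 31 points lie right of 0, after glycerol 15 of 31.

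Glucose enters through Slc2a1, also known as GLUT1, and is trapped in the cell by the hexokinases. After BaCl2, Slc2a1 measured 85.4, 86.3 and 95.0 CPM in the SMA libraries and 75.6, 76.8 and 66.8 CPM in the WT libraries. All SMA libraries lay above all WT libraries, with means of 88.9 ± 5.30 and 73.1 ± 5.44 CPM (SD, n = 3) and a log2 fold change of 0.28 ± 0.07 (SE, edgeR adjusted p = 0.058). The hexokinase genes Hk1 and Hk2 had log2 fold changes of -0.02 and -0.03, smaller than their SEs of 0.05 and 0.07.

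Of the 11 genes of the glycolytic chain proper, 9 were positive after BaCl2, with a median log2 fold change of 0.14. Pfkl, the liver-type subunit of phosphofructokinase, which commits sugar to glycolysis, measured 62.8, 65.3 and 59.2 CPM in SMA and 55.4, 45.6 and 52.3 CPM in WT libraries. Its groups did not overlap, and its log2 fold change was 0.29 ± 0.08 (SE, edgeR adjusted p = 0.072). The other subunits differed from it in sign or size, with Pfkm, the muscle type, at -0.15 and Pfkp, the platelet type, at 0.04.

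Further along the chain, Pgam1, a phosphoglycerate mutase, measured 205, 188 and 178 CPM in SMA and 173, 159 and 160.4 CPM in WT libraries. Gpi1, which turns glucose phosphate into fructose phosphate, measured 311, 298 and 282 CPM in SMA and 266, 266 and 253 CPM in WT libraries. Neither gene's groups overlapped, and the edgeR adjusted p-values were 0.11 for Pgam1 and 0.13 for Gpi1, with log2 fold changes of 0.22 and 0.18. Pgk1, one of the ATP-forming enzymes, was singled out after its values were seen, and measured 399, 364 and 338 CPM against 353, 296 and 293 CPM. Its WT library 1 lay above SMA library 3, so its groups overlapped (log2 fold change 0.23, edgeR adjusted p = 0.19). Aldoa (0.12), Tpi1 (0.13), Eno1 (0.14) and Pkm (0.18), which encode aldolase, triose phosphate isomerase, enolase and pyruvate kinase, had positive log2 fold changes with edgeR adjusted p-values of 0.27 to 0.39.

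Gapdh, the glyceraldehyde phosphate dehydrogenase often taken as a constant reference, stood apart and is described because of its values. After BaCl2 it measured 28.6, 76.8 and 91.0 CPM in SMA and 86.9, 81.7 and 85.2 CPM in WT libraries. SMA library 1 alone was low, at a level far under each of the other 5 libraries. The log2 fold change of -0.37 ± 0.31 (SE, edgeR adjusted p = 0.58) was -0.01 without that library. The same library was the highest of the 6 for 8 of the 11 glycolytic genes. The 4 pseudogenes and relatives found by symbols that begin with Gapdh summed to a mean of 0.44 CPM. Copies under other symbols were not searched, so this sum does not measure the reads lost to copies.

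Pyruvate is turned into lactate by Ldha, and lactate is exported by Slc16a3, also known as MCT4. Pdk1 encodes a kinase that blocks pyruvate dehydrogenase. All 3 genes were positive after BaCl2. Slc16a3 measured 52.2, 53.1 and 46.5 CPM in SMA and 41.1, 20.9 and 28.7 CPM in WT libraries. The SMA libraries lay close together and above a wide WT range, at 50.6 ± 3.61 against 30.2 ± 10.2 CPM (SD, n = 3), with a log2 fold change of 0.74 ± 0.19 (SE, edgeR adjusted p = 0.059). Ldha (0.15) and Pdk1 (0.24) had edgeR adjusted p-values of 0.25 and 0.24.

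Among the genes of oxygen sensing, Hif1a RNA spanned overlapping ranges in the genotypes after BaCl2. Its levels were 425, 410 and 413 CPM in SMA and 409, 431 and 406 CPM in WT libraries (log2 fold change 0.0019 ± 0.05, SE). Egln3, singled out after its values were seen, measured 2.93, 2.70 and 2.10 CPM in SMA and 2.17, 0.916 and 1.39 CPM in WT libraries. WT library 1 exceeded SMA library 3, and the log2 fold change of 0.78 ± 0.28 (SE) had an edgeR adjusted p of 0.16. Egln1 had a log2 fold change of 0.09.

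Of the 9 other hypoxia targets, Mxi1, which encodes an antagonist of MYC, had the smallest adjusted p of the set after BaCl2. It measured 48.4, 45.5 and 49.7 CPM in SMA and 40.3, 35.2 and 41.3 CPM in WT libraries. Its groups did not overlap, with means of 47.9 ± 2.16 and 38.9 ± 3.24 CPM (SD, n = 3) and a log2 fold change of 0.30 ± 0.07 (SE, edgeR adjusted p = 0.054). Ankrd37 (0.45), Vldlr (0.23), Bnip3 (0.17), Higd1a (0.04), Car9 (0.04) and Ndrg1 (0.03) were positive with adjusted p-values above 0.05. Kdm3a, a histone demethylase, had a log2 fold change of -0.02, with 77.6, 85.8 and 80.5 CPM in SMA and 77.6, 86.5 and 82.7 CPM in WT libraries. Adm, which encodes the vessel-dilating peptide adrenomedullin, lay lower (-0.27, edgeR adjusted p = 0.33). The fructose bisphosphate regulators had log2 fold changes of 0.01 (Pfkfb3) and 0.19 (Pfkfb4).

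Libraries of both genotypes shared the higher levels after BaCl2. Relative to the WT mean, the mean over the 31 genes was 0.12, 0.16 and 0.07 (log2) in SMA libraries 1, 2 and 3, and 0.09, -0.05 and -0.04 in WT libraries 1, 2 and 3. WT library 1 thus lay above SMA library 3, and 25 of the 31 genes in WT library 1 were above the WT mean, against 24, 25 and 20 in the SMA libraries. SMA library 1 was the highest of the 6 for 13 of the 31 genes, against 23.3% of all genes. The macrophage marker sums were 3174, 2568 and 2083 CPM in the SMA libraries and 1602, 1147 and 1236 CPM in the WT libraries. Their order differs from that of the means over the 31 genes in SMA libraries 1 and 2 and in WT library 1. The mean of SMA library 1 includes Gapdh, which was low in that library. The medians over the 31 genes were 0.19, 0.16 and 0.05 in SMA libraries 1, 2 and 3. Within the SMA group this is the order of the macrophage sums, while WT library 1 (0.07) stayed above SMA library 3. All 15 of the macrophage genes had positive log2 fold changes, with a median of 0.94. The test passed 14 of them, where it passed 2.73% of all genes as higher. The part of these cells in the values of the 31 genes was not tested.

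**Figure D2:**
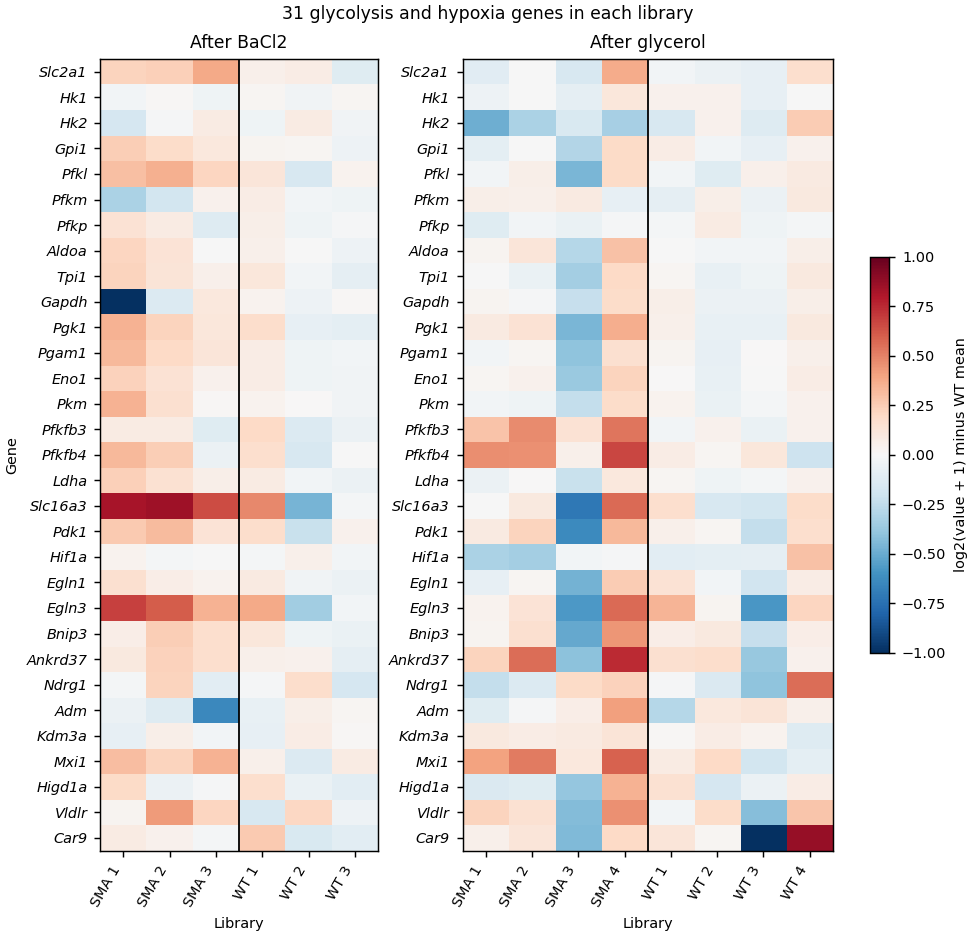
Level of each of the 31 genes (vertical axis) in each library (horizontal axis) after BaCl2 (left) and glycerol (right), as log2(value + 1) minus the mean of the WT libraries of that injury; red is above and blue below, and colours stop at 1 either side. After BaCl2 the SMA columns and WT library 1 are mostly red (20 to 25 of 31 genes above the WT mean), with Gapdh in SMA library 1 (28.6 CPM) the deepest blue, and after glycerol SMA library 3 is mostly blue and SMA library 4 mostly red.

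The second comparison was the same contrast after glycerol, where the 31 genes were split evenly by sign. In limma on log2(value + 1), 0 of 31 passed at an adjusted p under 0.05, where 2.87% of 14330 genes passed (1.7% higher and 1.17% lower). Log2 fold changes were positive for 15 and negative for 16, with a median of -0.01. At an unadjusted p under 0.05, Pfkfb3, Mxi1 and Pfkfb4 were higher and Hk2 was lower in SMA, where 12.3% and 11% of all genes reached that level. Only Pfkfb3 had groups that did not overlap, with SMA higher, against 14.1% of all genes (6.59% higher and 7.54% lower in SMA). The authors' deposited table passes those same 4 of the 31, Pfkfb3, Mxi1 and Pfkfb4 as higher and Hk2 as lower, and 12.5% of all genes with an adjusted p (7.28% higher and 5.21% lower).

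Pfkfb3 and Pfkfb4 encode the enzymes that make and remove a regulatory form of fructose bisphosphate that speeds phosphofructokinase. After glycerol, Pfkfb3 measured 3677, 4195, 3343 and 4382 normalized counts in SMA and 2971, 3116, 2896 and 3121 in WT libraries. All SMA libraries lay above all WT libraries, with means of 3899 ± 476 and 3026 ± 111 (SD, n = 4) and a log2 fold change of 0.36 ± 0.08 (SE, limma adjusted p = 0.056). Pfkfb4 measured 636, 634, 479 and 733 normalized counts in SMA and 486, 467, 498 and 400.0 in WT libraries. Only SMA library 3 fell inside the WT range, and the log2 fold change was 0.41 ± 0.14 (SE, limma adjusted p = 0.12).

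Mxi1 measured 3498, 3806, 2846 and 3992 normalized counts in SMA and 2806, 3045, 2333 and 2477 in WT libraries. Here too SMA library 3 alone overlapped the WT range, with a log2 fold change of 0.40 ± 0.12 (SE, limma adjusted p = 0.092). Mxi1 was the gene of the set that lay among the 6 smallest p-values after both injuries with the same sign.

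Hk2, the inducible hexokinase of muscle and fat, was the exception in direction. It measured 20069, 22531, 25302 and 22356 normalized counts in SMA and 25105, 28982, 25659 and 33522 in WT libraries. SMA library 3 lay just above WT library 1, and the log2 fold change was -0.32 ± 0.10 (SE, limma adjusted p = 0.11). Without SMA library 3, these 4 genes passed the test, at log2 fold changes of 0.43 for Pfkfb3 (limma adjusted p = 0.0063), 0.50 for Mxi1 (0.013), 0.53 for Pfkfb4 (0.017) and -0.38 for Hk2 (0.045), where 11.5% of all genes (1645) passed, so the count of 4 of the 31 is close to the background. Leaving out each of the other libraries in turn passed 0 of the 31 and 0 to 82 genes in all.

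Kdm3a and Hif1a complete the 6 genes of smallest p after glycerol. Kdm3a measured 6435, 6329, 6413 and 6579 normalized counts in SMA and 6069.6, 6333, 6165 and 5506 in WT libraries, a log2 fold change of 0.10 (limma adjusted p = 0.28). Hif1a measured 26637, 26166, 32459 and 32850.5 in SMA and 30773.5, 30954, 31112 and 40686.5 in WT libraries. WT library 4 was high and SMA libraries 1 and 2 were low, and the log2 fold change was -0.17 ± 0.11 (SE, limma adjusted p = 0.38).

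The genes of the glycolytic chain lay close to 0 after glycerol. Its 11 genes had log2 fold changes of -0.06 to 0.04, and the limma adjusted p-values were 0.52 or more. Gapdh measured 97105, 94823, 81243 and 108139 normalized counts in SMA and 99292, 91753, 91684 and 99098 in WT libraries, with no library as low against the others as SMA library 1 after BaCl2. Slc16a3, at 0.74 after BaCl2, measured 6059, 6503, 3705 and 8987 normalized counts in SMA and 6828, 5431, 5350.4 and 6888 in WT libraries. The SMA range enclosed the whole WT range, and the log2 fold change was -0.01 ± 0.23 (SE).

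This spread within the SMA group was shared across the set. SMA library 4 was the highest of the 8 libraries for 25 of the 31 genes, against 21.3% of all genes, and SMA library 3 was the lowest for 19 of the 31, against 13.9% of all genes. Relative to the WT mean, the mean over the 31 genes was 0.28 (log2) in SMA library 4 and -0.25 in SMA library 3, but 0.01 and 0.08 in SMA libraries 1 and 2. Pgk1 shows the pattern, with 48288, 49955, 33039 and 58350.3 normalized counts in SMA libraries 1 to 4, against 42927 to 48425 in WT libraries. The macrophage marker sums took the same order within the SMA group, from 121666 normalized counts in library 3 to 295265 in library 4, with 217142 and 252560 in libraries 1 and 2. Library 3 was nevertheless inside the WT range of these sums. The FAP marker sums were also lowest in SMA library 3 (3.29 M normalized counts) and highest in SMA library 4 (4.15 M) within that group, with 3.54 and 3.51 M in libraries 1 and 2. The part of either in the spread of the 31 genes was not tested.

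**Figure D3:**
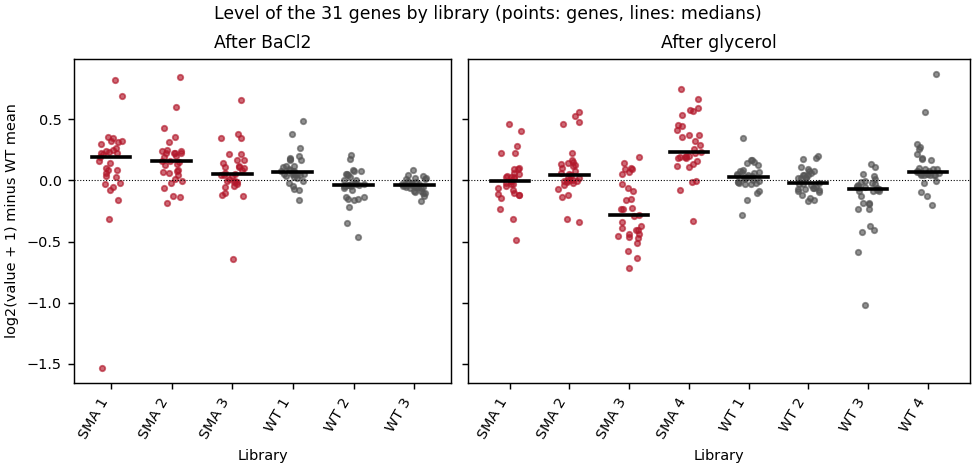
Each point is 1 of the 31 genes in 1 library (horizontal axis), as log2(value + 1) minus the mean of the WT libraries of that injury (vertical axis); black lines are medians over the genes, red points SMA and grey points WT libraries. After glycerol the medians of SMA libraries 3 and 4 are -0.28 and 0.23, with the other 6 libraries between them.

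The third comparison asked whether the genotype difference itself differed between the injuries. For each gene the log2 fold change after BaCl2 was subtracted from that after glycerol and divided by the standard error, a z test that makes no allowance for the few libraries. Of the 31 genes 0 passed, where 10.5% of 13960 genes passed (5.53% higher and 5% lower). At an unadjusted p under 0.05, 1 gene was higher and 6 were lower, where 24.6% of all genes reached that level in either direction, and with limma for the BaCl2 side 0 passed. The difference was negative for 23 and positive for 8 of the 31, with a median of -0.16, against 52.2% positive and a median of 0.01 over all genes. Pfkfb3 had the smallest adjusted p, with 0.35 ± 0.13 (SE, adjusted p = 0.056), followed by Slc16a3 with -0.76 ± 0.30 (SE, adjusted p = 0.08). As injury and batch carry the same label, they cannot be told apart.

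By sign, 12 genes of the set were positive after both injuries and 3 negative after both. Another 13 were positive after BaCl2 and negative after glycerol, and 3 the reverse. Over the 13960 genes fitted in both these shares were 25.9%, 27.3%, 22.7% and 24.1%, in the same order. The 13 include 7 of the 11 glycolytic genes as well as Ldha, Slc16a3, Egln1 and Higd1a, and all but Pfkp and Hif1a lay within 1 SE of 0 after glycerol.

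The levels of the 31 genes in WT libraries also differed between the tables, and these are described with no test, since injury, batch and the authors' counting cannot be told apart. Each WT library was scaled to a sum of 1 M over the 14302 genes in both tables. The ratio of the WT means, glycerol to BaCl2, was above 1 for 25 of the 31, against 49% of 12560 genes compared, and the median was 1.43, against 0.9955 over all genes. It was above the upper quartile of all genes, 1.156, for 22 of the 31. The genes named next were picked for their ratios. Gapdh had 79.4 to 88.8 per M in the BaCl2 table and 1249 to 1386 per M in the glycerol table, a ratio of 15.5. The hypoxia targets Egln3 (5.85), Bnip3 (4.78) and Ankrd37 (4.38) followed, then Slc16a3 (2.76), Pdk1 (2.45) and Pgam1 (2.37). Hk2 had the lowest ratio, 0.705, and Hif1a lay at 1.10.

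**Figure D4:**
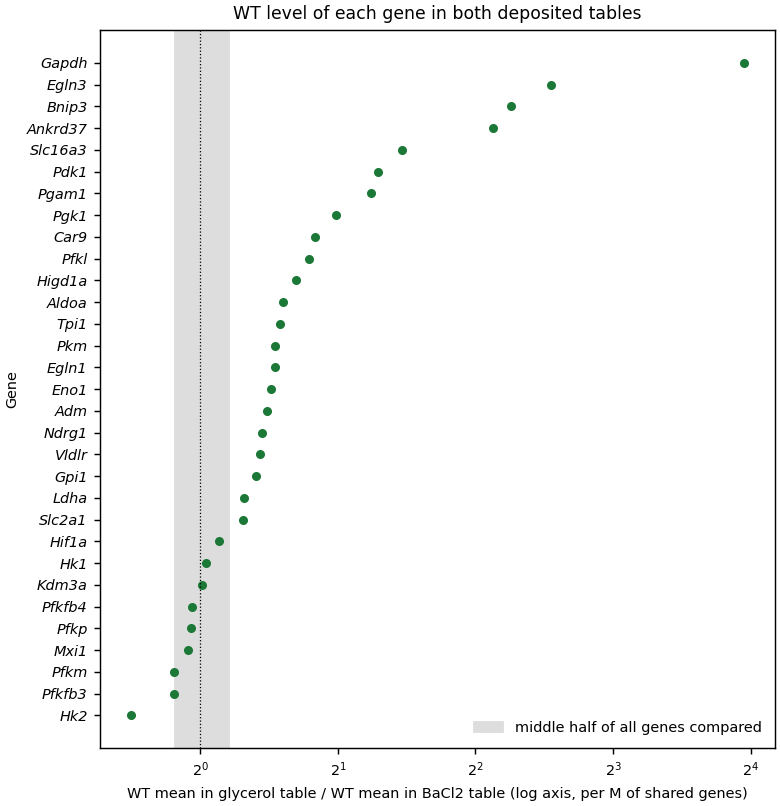
Ratio of the WT mean in the glycerol table to the WT mean in the BaCl2 table for each of the 31 genes (horizontal log axis, levels per M of the genes in both tables); the grey band spans the quartiles of the 12560 genes compared, 0.879 to 1.156. Gapdh lies at 15.5 and Hk2 at 0.705, and 22 genes lie right of the band.

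Other genes of the same pathways came from lists of 80 symbols. After BaCl2, 76 were tested, of which 5 passed as higher and 2 as lower, where 2.73% and 1.56% of all genes passed, and the median log2 fold change was -0.01. Hk3, the hexokinase typical of myeloid cells, measured 29.7, 25.9 and 18.7 CPM in SMA and 15.8, 10.6 and 11.8 CPM in WT libraries and rose by 0.96 ± 0.18 on the log2 scale (SE, edgeR adjusted p = 0.018). Slc2a6, a hexose transporter, rose by 0.98, the chemokine receptor Cxcr4 by 0.83, the transferrin receptor Tfrc by 0.49 and the vessel growth factor Vegfa by 0.27, with edgeR adjusted p-values of 0.0094 to 0.042. Vegfa measured 156, 158 and 167 CPM in SMA and 138, 132 and 128 CPM in WT libraries. The glucose transporter Slc2a3 fell by 0.55 and the matrix enzyme Loxl2 fell by 0.45 on the log2 scale (edgeR adjusted p = 0.022 and 0.018).

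Most of these calls were lost with 1 library fewer. When any of SMA library 2, WT library 2 and WT library 3 was left out, none of Hk3, Slc2a6, Tfrc, Vegfa, Slc2a3 and Loxl2 passed, with adjusted p-values of 0.052 to 0.17, and without WT library 1 Tfrc (0.11) and Vegfa (0.053) did not. Cxcr4 lost its call without WT library 3 (0.061). The directions of these genes stayed the same. Over all genes, 145 (0.695%), 163 (0.776%) and 41 (0.196%) passed without SMA library 2, WT library 2 and WT library 3, respectively. With every library 863 (4.29%) passed, so the loss of calls was not particular to these genes. The macrophage markers were also higher in the SMA libraries. From SMA library 1 to 3, Hk3 fell as the macrophage sums did, while Vegfa rose. The part of these cells in the higher genes was not tested.

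After glycerol, 74 pathway genes were tested in limma. At an unadjusted p under 0.05, 8 were higher and 8 lower, where 12.3% and 11% of all genes reached that level. At an adjusted p under 0.05, 1 was higher and 0 were lower, where 1.7% and 1.17% of all genes passed. The higher gene was Wsb1, part of a ubiquitin ligase, with 28118, 28709, 26455 and 29684.5 normalized counts in SMA and 23284, 24029.8, 23930.4 and 22965 in WT libraries, a rise of 0.26 ± 0.05 on the log2 scale (SE, limma adjusted p = 0.032). Leaving out any library except SMA library 3 took the adjusted p of Wsb1 to 0.06 or more, in fits where 0 to 82 genes passed in all. Epas1, which encodes the HIF-2alpha subunit abundant in endothelial cells, measured 3943, 4734, 4335 and 4499 normalized counts in SMA and 5054, 5492, 6432 and 6717 in WT libraries. All SMA libraries lay below all WT libraries, at a log2 fold change of -0.43 ± 0.10 (SE, limma adjusted p = 0.052). The summed level of 8 endothelial genes was 7049 to 9067 in SMA and 10902 to 15899 normalized counts in WT libraries, and its part in the level of Epas1 was not tested. Hk3 (0.61), Vegfa (0.15) and Eno1b (0.46) had limma adjusted p-values of 0.18 to 0.41, and Eno1b, a near copy of Eno1 whose reads the counting could split, had 0.32 after BaCl2 (edgeR adjusted p = 0.13).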

How the data were processed

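RNA-seq was made from freshly isolated FAPs with poly(A) selection and a directional library kit, per the labels' protocols. Per the submitters' processing notes the tools were featureCounts, Salmon, fastp and DESeq2, with no version or order. Which aligner and genome build were used is not given in the sources used here. As deposited, the BaCl2 table holds whole-number read counts per gene, and another 6 of its columns, standardised values, were not used. The glycerol values are a normalized signal per gene made by the authors. The log2 fold changes and p-values in both tables are the authors' own and were used only beside the tests made here.

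The counts after BaCl2 were filtered with filterByExpr, scaled by TMM (0.953 to 1.05) and tested with edgeR 4.0.16. Glycerol values were tested as log2(value + 1) with limma 3.58.1 and a mean-variance trend, so fold changes of low genes are understated. P-values were adjusted over all genes tested by the method of Benjamini and Hochberg. DESeq2 1.42.0, other scaling, filters, pseudocounts, leaving out each library and a replicate block were the alternatives, in R 4.3.3. The scripts were tested on simulated data. The members and lists were chosen with earlier results of these data known. The named-gene rule gives values by library for members that pass and for the 6 of smallest p after each injury, and names the pathway genes that pass plus Vegfa, Hk3, Eno1b and Epas1. At 97.7 M counts or more a library, depth limits only the lowest genes after BaCl2, such as Ankrd37 at 0.392 to 0.736 CPM.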

Additional observations from a re-analysis of the deposited data

Results flagged for a closer look

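After glycerol, 90 groups of 4 libraries were checked for a library far from the others, of which 5 were marked, and chance marks about 1 in 20. Among the 31 genes, Hif1a was high in WT library 4 (40686.5 normalized counts) and Bnip3 low in WT library 3 (5433.54). Among the other pathway genes, Cited2 was high in WT library 4 (9453.31), Tfrc low in SMA library 3 (3700.26) and Zfp395 high in WT library 2 (3499.67).

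The genotype difference differed between the injuries, by the z test of the difference (glycerol minus BaCl2, log2), for 6 of 74 pathway genes outside the 31, where 10.5% of all genes passed that test, so the count is not above the background. It was positive for Angptl4 (0.5977), Zfp395 (0.5086), Slc2a3 (0.4500) and Cited2 (0.3836), and negative for Slc2a6 (-0.8546) and Lox (-0.2893). Angptl4, which inhibits lipoprotein lipase, measured 283 to 333 CPM in SMA and 347 to 387 CPM in WT libraries after BaCl2, but 12812 to 16575 against 10272 to 12712 normalized counts after glycerol. Lox lost its call when any of several single libraries was left out, as did Zfp395, and Slc2a3 lost it without SMA library 1 or WT library 3 of BaCl2 (adjusted p = 0.064 and 0.082).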

How the results depend on the processing

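After BaCl2 the count of the 31 genes passing as higher, 0 in edgeR with TMM, was 5 in DESeq2, 7 without a filter on low counts (Egln3, Mxi1, Pfkl, Pgam1, Pgk1, Slc16a3 and Slc2a1), 2 with a replicate block (Slc16a3 and Mxi1) and 1 in limma on log2 CPM (Slc16a3), an alternative added after seeing the data. The cause was not tested. Genes passing in all, 863 there (4.29%), were 1698 in DESeq2 (11.3%) and 1867 without the filter (5.665%). With the replicate block 1144 passed (5.69%) and in limma 884 (4.39%). Without SMA libraries 1 and 2 together, also added after seeing the data, 108 passed, 1 of the 31 (Adm) as lower, and the median of the 31 was 0.0476. These are also the libraries in which most of the 31 were highest (13 and 7), so a lower median follows from leaving them out, and the 1 SMA library kept was assumed to vary like the WT libraries. Leaving out 1 library at a time gave 0 to 3 of the 31 as higher and 41 (without WT library 3) to 1577 (without SMA library 3) in all. After glycerol, 411 genes passed in all, 2 without the mean-variance trend, 257 with a replicate block, and 0 to 1645 leaving out 1 library, with 0 to 3 of the 31 higher and 0 to 1 lower. For the difference between injuries, a replicate block gave 1 of the 31 higher and 2 lower, where 13.9% of all genes passed in either direction. Leaving out 1 library gave 0 to 1 higher and 0 to 5 lower, where 7.19% to 14.1% of all genes passed. The 5 came without SMA library 4 of glycerol, where 10.1% of all genes passed. Same-numbered libraries did not deviate together (correlations of -0.126 to 0.087), so the numbers were not taken as pairs. For single named genes, 1573 results kept their side of the threshold under the alternatives, 63 lost a call, 44 gained one and 0 called values changed sign. The unknown depth of the glycerol values and the number of libraries limit both tests.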
